A study of Canis lupus familiaris with 33 samples.

Results

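The collagen genes were the rows of the TMM-normalized table whose gene symbol reads COL, a number, A and a number, which gave 31 of the 25096 genes in the table. The RNA-seq libraries came from 29 dogs with naturally occurring invasive urothelial carcinoma (iUC, cancer of the lining of the urinary bladder), with 1 tumor per dog, and from 4 samples of normal canine bladder mucosa, named A to D here. The tumors were high grade, came from dogs that had not been treated, were taken as small biopsies through a cystoscope and had a high share of epithelial cells. The normals came from dogs euthanized for reasons other than bladder disease. The normal mucosa was the lining dissected off the bladder wall, and its labels call it normal urothelial cells. All libraries were depleted of ribosomal RNA and run in 1 batch. Of the 43 collagen symbols in the RefSeq table for the dog, 12 had no row by symbol here and were not analysed here, among them COL3A1, COL17A1 and COL18A1.

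Collagens are the main structural proteins of connective tissue, and each molecule is a triple helix of chains that are encoded by separate genes. Fibrillar collagens (types I, V, XI and XXIV among others) form the cable-like fibrils of stroma and are made mostly by fibroblasts and smooth muscle. Basement-membrane collagens include the type IV network under epithelium, around muscle and around vessels, the type VII anchoring fibrils that tie epithelium to stroma, and type XV on the outer side of basement membranes. The fibril-associated collagens (FACITs, such as types IX, XII, XIV and XIX) decorate fibrils, type VI forms beaded filaments around cells, types VIII and X form short networks, and types XIII and XXIII span the cell membrane. In the bladder, fibrillar collagen lies in the lamina propria and between muscle bundles, and the type IV network lies under the urothelium.

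Each value below is a log2 normalized expression level from which the gene's median over the 33 samples was subtracted, so 0 is the middle sample and a difference of 1 is 2-fold. Such values can be compared between samples of a gene, but not between genes. The total read count of each library is unknown, since the values are no longer counts. Many genes have a shared lowest value, which is the value a sample takes when it has no signal for the gene. A normal library had 755 to 1019 genes at that value and a tumor library had 3699 to 8175. The olfactory receptor genes, which serve the sense of smell, were above their lowest value in 100% of cases in each normal, and in 4.76% to 92.5% of cases (median 18.4%) in the tumors. Their median log2 fold change was −5.37 (152 genes, −7.13 to −0.68), and the part of such broad signal in the collagen differences was not tested. The share was over 50% in 4 tumors (1, 5, 9 and Po), and the main counts were repeated without them.

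Of the 31 collagen genes, 22 were lower in the tumors, 0 were higher and 9 did not pass the test (limma, Benjamini-Hochberg adjusted p of at most 0.05 and at least 2-fold). All 31 had passed the filter on low values. Lower calls made up 45.8% of the 24471 genes tested, and higher calls 10.7%. The median log2 difference between tumors and normals was −2.79 for the collagen genes and −0.84 for all genes tested. At an unadjusted p of at most 0.05, the numbers were again 22 lower and 0 higher. Every tumor was below every normal for 12 collagen genes, against 28.5% of the genes tested. Among the 18418 genes whose median lay above their lowest value, where the median difference was −0.01, 20 of the 29 collagen genes were lower, against 30.1% of those genes. That median was taken over 33 samples, 29 of them tumors. The filter thus drops genes at their lowest value in most tumors, and lower calls went from 11206 to 5543. It is not a neutral reference. Without the 4 tumors with a high olfactory receptor share, 22 collagen genes were again lower and 0 higher. Those 4 were the tumors nearest to the normals in that share. Leaving them out therefore cannot show the part of the broad signal in the differences.

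**Figure D1:**
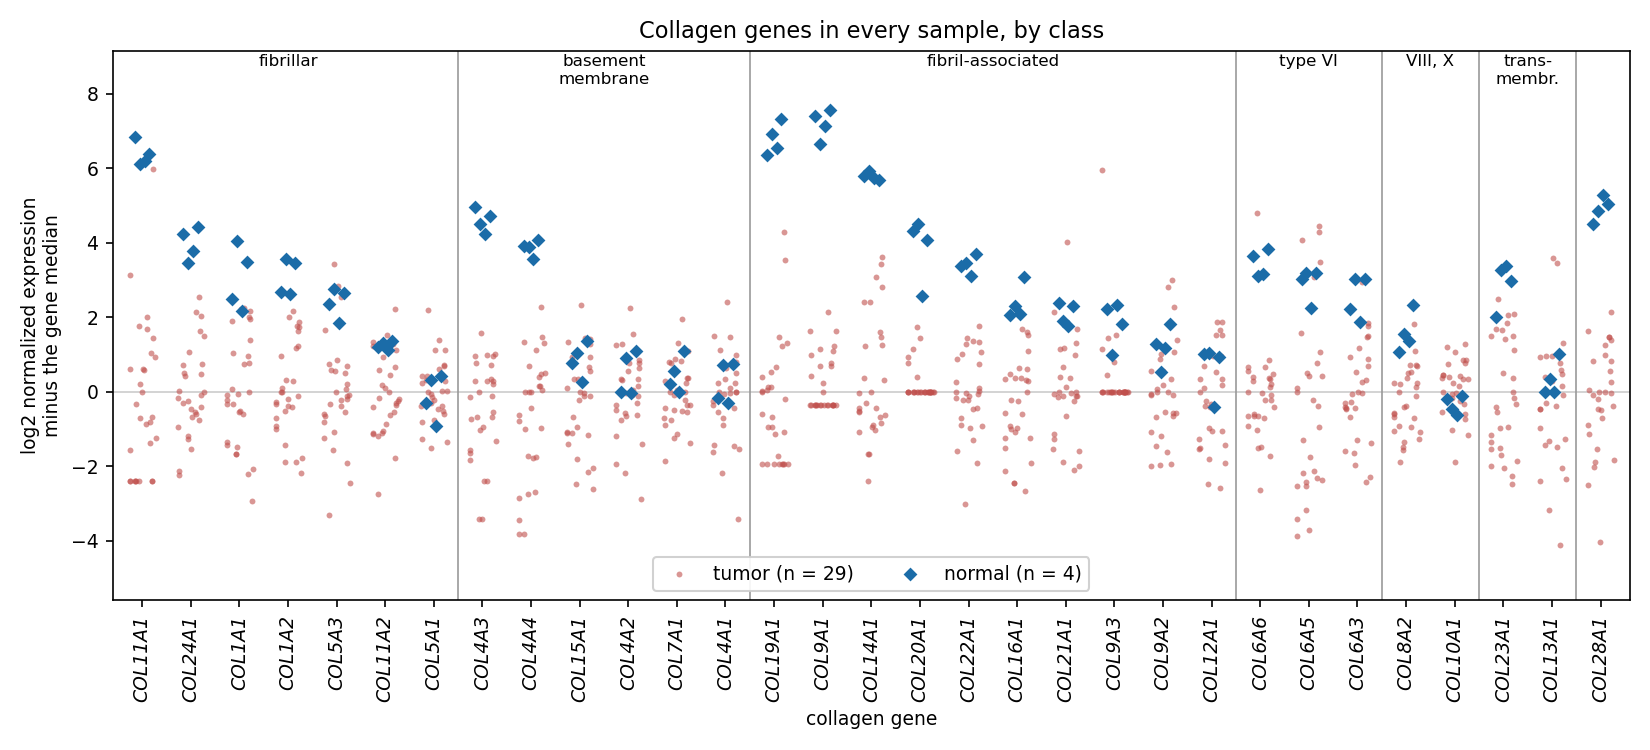
Each collagen gene in every sample, on a log2 scale from which the gene's median was subtracted (vertical axis), grouped by class and ordered by the size of the difference. Blue diamonds are the 4 normals and red points the 29 tumors, and for 12 genes, such as COL4A3, COL9A1 and COL14A1, the 2 sets do not overlap. The unlabelled column at the right is COL28A1.

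Most markers of smooth muscle, fibroblasts and Schwann cells were lower in the tumors too, while the endothelial markers did not pass. All 5 of the smooth muscle markers tested were lower in the tumors (median log2 difference −6.13), as were 4 of 5 fibroblast markers (−2.71; 3 of 5 without normal A or D, where LUM lost its call) and 2 of 2 Schwann cell markers (−5.43). These small sets stand beside 45.8% lower and 10.7% higher calls over all genes tested. Of the endothelial markers, 0 of 3 were lower and 0 of 3 higher (−0.03). The mean of the smooth muscle markers lay between 4.94 and 6.97 in the normals and between −1.28 and 3.89 in the tumors, and that of the fibroblast markers between 2.13 and 2.79 in the normals and between −2.26 and 2.03 in the tumors. Of the epithelial markers, 4 of 6 were higher in the tumors, while UPK1A and UPK2, which encode uroplakins of the urothelial surface, differed by 0.03 and 0.04. Normal D was the lowest of the 4 for each of these 6 markers, with UPK2 at −2.14 against 0.35 to 0.38 in the others. Without it 3 of 6 were higher, with KRT19 no longer called, and UPK1A and UPK2 differed by −0.31 and −0.58 (adjusted p = 0.665 and 0.259). Of the leukocyte markers, 1 of 3 was higher and 0 of 3 lower. In bulk tissue, fewer cells of a type and less RNA per cell cannot be told apart, and the part of these cells in the collagen differences was not tested.

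Of the 7 fibrillar collagen genes, 6 were lower in the tumors and 1, COL5A1, did not pass (median log2 difference −3.03). That is 85.7%, against 45.8% of all genes tested. COL1A1 encodes the main chain of type I collagen, the most abundant collagen of stroma. Its values were 2.49, 4.04, 2.16 and 3.47 in normals A to D, and ran from −2.94 to 2.23 in the tumors with a median of −0.08. Tumors Po, JE and 7 were above the lowest normal, so the groups overlapped, and the other 26 tumors were below each normal. COL1A1 was lower in the tumors by a log2 difference of −3.04 ± 0.74 (SE, adjusted p = 0.000494), or 8.23-fold.

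COL1A2, the partner chain of COL1A1 in type I collagen, had values of 2.66, 3.55, 2.61 and 3.46 in the normals and from −2.17 to 2.15 (median −0.10) in the tumors. Here the groups did not overlap. The log2 difference was −3.03 ± 0.63 (SE, adjusted p = 7.07e-05), or 8.18-fold. For both chains normals B and D were the highest of the 4, an order that 16 of the 31 collagen genes shared.

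COL11A1 encodes a chain of type XI collagen, a minor fibril component that is best known from cartilage. It had the largest fall of the fibrillar genes. Its values were 6.83, 6.12, 6.18 and 6.37 in the normals and from −2.40 to 5.97 (median −0.68) in the tumors, of which 8 were at the lowest value. Tumor 7, at 5.97, stood just under the normals and far above the next tumor, Da6, at 3.12. The log2 difference was −6.61 ± 0.98 (SE, adjusted p = 3.87e-07).

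COL24A1, a fibrillar collagen described in developing bone and eye, was at 4.24, 3.45, 3.78 and 4.43 in the normals and from −2.24 to 2.55 (median −0.18) in the tumors. The groups did not overlap, with a log2 difference of −3.97 ± 0.60 (SE, adjusted p = 5.17e-07). COL11A2, another type XI chain, changed less. Its values were 1.20, 1.30, 1.13 and 1.36 in the normals and from −2.76 to 2.21 (median −0.21) in the tumors, and the groups overlapped. Tumor and normal means differed by a log2 value of −1.33 ± 0.54 (SE, adjusted p = 0.029), and the call was lost when normal A, B, C or D was left out (adjusted p from 0.0529 to 0.0704).

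Type V collagen regulates the width of type I fibrils, and the type V chains in the table differed in outcome. COL5A3 was lower in the tumors by a log2 difference of −2.44 ± 0.72 (SE, adjusted p = 0.00313), although tumors 9 and JE, at 3.43 and 2.85, were above the highest normal at 2.77. COL5A1 was at −0.32, 0.31, −0.91 and 0.41 in the normals and from −1.53 to 2.19 in the tumors, around a median of 0.00. Its log2 difference was 0.15 ± 0.42 (SE, adjusted p = 0.759), with the opposite sign in the DESeq-normalized table (−0.15). Between COL1A1 and COL5A1, which belong to the same fibrils, the difference of the fold changes itself was not tested.

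Of the 6 basement-membrane collagen genes, 2 were lower in the tumors, COL4A3 and COL4A4, and the other 4 did not pass (median log2 difference −0.85). That is 33.3%, against 45.8% of all genes tested. The α3 and α4 chains that they encode form, with α5, a type IV network that is best known from the kidney glomerulus. COL4A3 was at 4.95, 4.50, 4.24 and 4.73 in the normals and from −3.42 to 1.58 (median −0.16) in the tumors. The tumors did not reach the normals, and the log2 difference was −5.10 ± 0.65 (SE, adjusted p = 2.06e-08), or 34.4-fold. COL4A4 was at 3.90, 3.88, 3.57 and 4.07 in the normals and from −3.82 to 2.27 (median −0.02) in the tumors. Again the groups were apart, and the log2 difference was −4.50 ± 0.82 (SE, adjusted p = 1.1e-05), or 22.6-fold. For each of both genes, 2 tumors were at the lowest value.

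COL4A1 and COL4A2 encode the chains of the common type IV network, which is found in nearly all basement membranes including those of vessels. COL4A1 was at −0.16, 0.70, −0.29 and 0.75 in the normals, inside the range of −3.42 to 2.41 over the tumors, whose median was 0.00. The log2 difference was −0.41 ± 0.60 (SE, adjusted p = 0.547). COL4A2 was at 0.00, 0.90, −0.04 and 1.10 in the normals and from −2.90 to 2.24 (median −0.05) in the tumors. Its log2 difference was −0.58 ± 0.57 (SE, adjusted p = 0.36). Of the tumors, 18 were above the lowest normal for COL4A1 and 14 for COL4A2.

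COL7A1, the chain of the anchoring fibrils, was at 0.19, 0.56, 0.00 and 1.09 in the normals and from −1.86 to 1.94 (median −0.09) in the tumors, which spanned the normals. The log2 difference was −0.53 ± 0.43 (SE, adjusted p = 0.272). COL15A1, a proteoglycan collagen of vessel and muscle basement membranes, differed by −1.11 ± 0.64 on the log2 scale (SE, adjusted p = 0.121), and its tumors ran from −2.61 to 2.33.

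**Figure D2:**
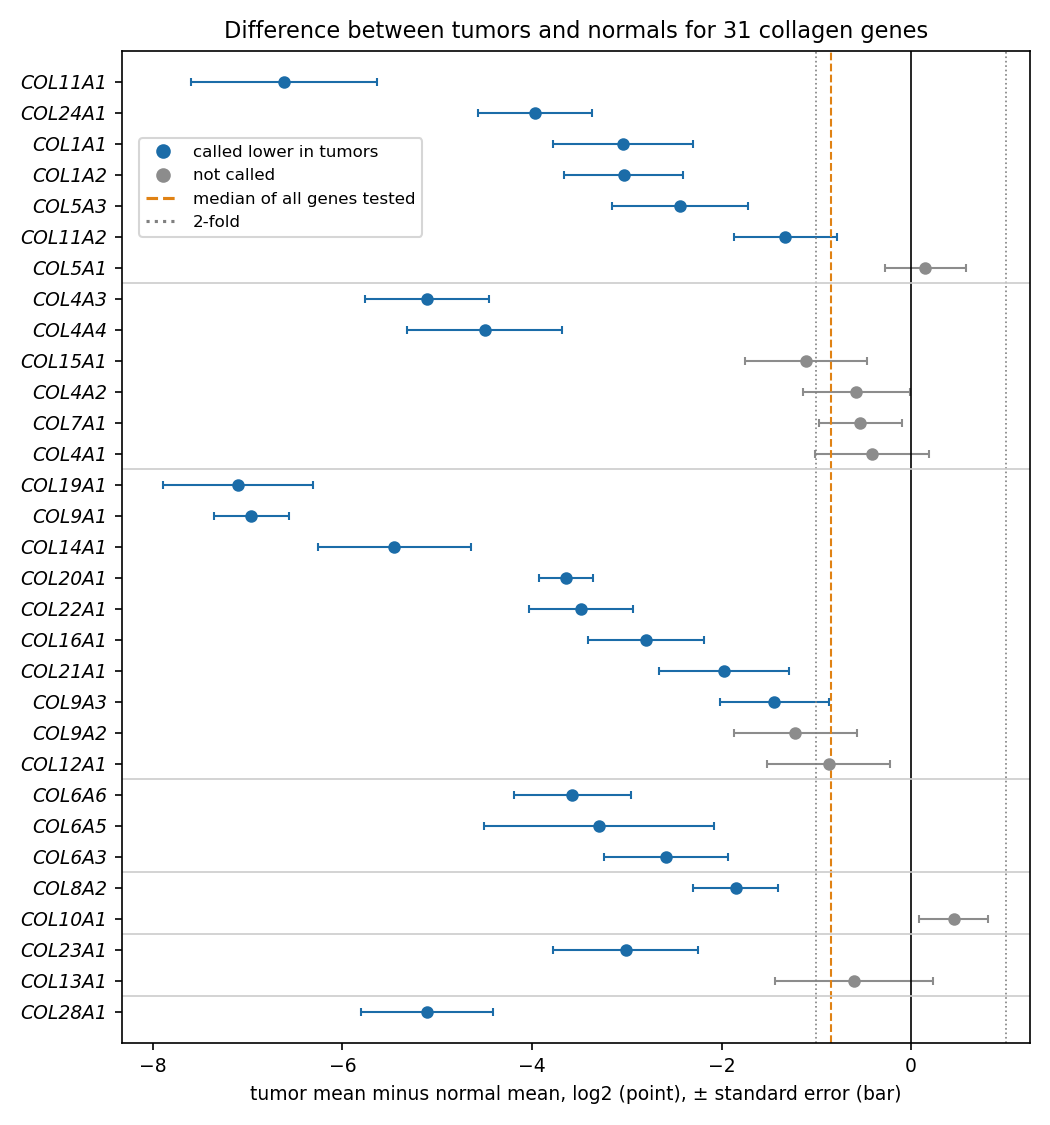
Tumor mean minus normal mean on the log2 scale (horizontal axis, points) with its standard error (bars) for the 31 collagen genes, in the same class order. The 22 blue genes were called lower in the tumors. The dashed orange line at −0.84 is the median of all genes tested, and COL4A1, COL4A2, COL7A1, COL5A1, COL13A1 and COL10A1 lie to its right.

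The remaining 18 collagen genes, all outside the fibrillar and basement-membrane classes, had a median log2 difference of −2.90, and 14 of them (77.8%) were lower in the tumors, against 45.8% of all genes tested. Among the 10 fibril-associated genes, 8 were lower. COL19A1, a minor collagen of basement membrane zones and muscle, and COL9A1, a chain of the type IX collagen that coats cartilage fibrils, had the 2 largest differences of the 31 genes. Their order, and their place ahead of COL11A1 (−6.61), are not determined, since tumors at the lowest value limit each of these differences. COL19A1 was at 6.34, 6.92, 6.55 and 7.32 in the normals and from −1.95 to 4.29 (median −0.61) in the tumors, 8 of which were at the lowest value. Between the groups, the log2 difference was −7.10 ± 0.79 (SE, adjusted p = 1.01e-09).

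COL9A1 was at 7.40, 6.66, 7.15 and 7.57 in the normals and from −0.36 to 2.13 in the tumors. In 16 of the 29 tumors it was at the lowest value, −0.36, and no tumor came near the normals. The log2 difference was −6.96 ± 0.40 (SE, adjusted p = 3.97e-17), a size that the lowest value limits. Over the tumors COL9A1 rose with the olfactory receptor share (Pearson's r = 0.727, adjusted permutation p = 0.00155), though by rank this did not pass (Spearman's rho = 0.468, adjusted permutation p = 0.172). Without the 2 tumors of most extreme share, r was 0.552. No other collagen gene of the 31 passed this test by either measure.

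The other chains of type IX collagen had smaller differences, and that of COL9A3 was limited by its lowest value, which the normals exceeded by a mean of 1.83. COL9A2 was at 1.29, 0.53, 1.18 and 1.83 in the normals and from −1.996 to 3.01 (median −0.07) in the tumors. Its log2 difference was −1.22 ± 0.65 (SE, adjusted p = 0.093), and it did pass in the DESeq-normalized table (−1.52, adjusted p = 0.0399). COL9A3 was at 2.23, 0.98, 2.32 and 1.80 in the normals and at its lowest value in 23 of 29 tumors, but reached 5.96 in tumor 1, above each normal. Tumors were lower by a log2 difference of −1.44 ± 0.58 (SE, adjusted p = 0.0261), and the call was lost without normal A, C or D (adjusted p from 0.0562 to 0.0868).

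COL14A1, a fibril-associated collagen of mature stroma and of tissue around muscle, had nearly the same value in each normal, at 5.79, 5.94, 5.75 and 5.68. The tumors ran from −2.39 to 3.63 (median −0.29) and did not reach them. The log2 difference was −5.45 ± 0.81 (SE, adjusted p = 3.76e-07), or 43.7-fold. COL20A1, COL22A1 and COL16A1 also had each tumor below each normal, with log2 differences of −3.64, −3.48 and −2.79. COL20A1 was at its lowest value in 23 tumors. Its normals lay a mean of 3.86 above that value, near the lower end of the 3.62 to 8.28 of the 147 olfactory receptor genes in the same normals (not scaled to gene length). Of the other 6 collagen genes with such a lowest value, COL9A3 (1.83) lay below that range, COL9A1 (7.56), COL4A4 (7.67) and COL4A3 (8.02) near its upper end, and COL19A1 (8.73) and COL11A1 (8.78) above it. COL22A1 is known from tissue junctions such as those of muscle with tendon. COL21A1, described in vessel walls, was lower by a log2 difference of −1.97 ± 0.69 (SE, adjusted p = 0.0113), with tumor JE at 4.01 above the highest normal at 2.39. COL12A1, the close relative of COL14A1, did not pass (−0.87 ± 0.65, SE, adjusted p = 0.231), and 18 tumors were above its lowest normal.

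All 3 type VI genes in the table were lower in the tumors, each with some overlap, beside 45.8% of all genes tested. COL6A3, the long chain of the common type VI filament, was at 2.23, 3.02, 1.86 and 3.03 in the normals, and tumor Po, at 2.94, was the 1 tumor above the lowest of them. Its log2 difference was −2.59 ± 0.65 (SE, adjusted p = 0.000739). COL6A5 had the widest spread of any collagen gene over the tumors (SD 2.48), from −3.88 to 4.44, and 4 tumors were above each normal. Its log2 difference was −3.29 ± 1.21 (SE, adjusted p = 0.0161). COL6A6 was lower by −3.57 ± 0.62 on the log2 scale (SE, adjusted p = 4.99e-06), with tumor 9 at 4.79 and the next tumor at 0.85.

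COL28A1, a collagen known from the sheath of peripheral nerves, was at 4.51, 4.85, 5.28 and 5.05 in the normals and from −4.05 to 2.13 (median −0.03) in the tumors. The groups were apart, and the log2 difference was −5.11 ± 0.70 (SE, adjusted p = 7.07e-08), or 34.5-fold. The Schwann cell markers CDH19 and SOX10 were lower by −7.46 and −3.40 on the same scale. COL8A2 (−1.85) and the membrane-spanning COL23A1 (−3.01) were also lower. COL13A1, which spans the membrane too and is known from nerve-muscle junctions, differed by −0.60 ± 0.83 (SE, adjusted p = 0.526). COL10A1, a marker of cartilage that turns to bone, had a higher mean in the tumors than in the normals, with 19 of 29 tumors above each normal, but did not pass (log2 difference 0.45 ± 0.37, SE, adjusted p = 0.273).

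Whether collagen chains changed by unequal amounts was tested on the log2 difference of chain pairs within each sample, which library scaling leaves as it is where neither chain is at its lowest value. In the DESeq-normalized table the 10 pairs moved by less than 0.1. An exact permutation test over the 40920 ways to choose 4 of 33 samples was used, two-sided, with Benjamini-Hochberg adjustment over the 10 of 20 listed pairs that were in the table, and 5 pairs passed. COL1A1 minus COL4A1 was 2.65, 3.33, 2.45 and 2.72 in the normals and from −2.84 to 2.01 in the tumors (median 0.13). Each of the 29 tumors was below each normal, so the type I chain fell against the type IV chain by a log2 difference of −2.63, or 6.19-fold (exact permutation test, adjusted p = 0.000122).

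The partners of 2 cartilage collagens parted most. COL9A1 minus COL9A2 was 5.74 to 6.13 in the normals and −3.37 to 2.71 in the tumors, a log2 change of −5.74 (exact permutation test, adjusted p = 0.000122). COL11A1 minus COL11A2 was 4.82 to 5.63 in the normals and −3.74 to 6.26 in the tumors, a log2 change of −5.29 (exact permutation test, adjusted p = 0.000407). In that pair tumor 7 was above the normals and the other 28 tumors were below. COL9A1 and COL11A1 were at their lowest value in 16 and 8 tumors, which limits the sizes of both changes and leaves their order undetermined. The raw p of the first pair and of COL1A1 minus COL4A1, 2.44e-05, is the smallest that this test can give.

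COL1A1 fell less than COL11A1 and COL14A1. COL1A1 minus COL11A1 was −4.34, −2.08, −4.03 and −2.91 in the normals and from −4.47 to 4.29 (median 0.28) in the tumors, a log2 change of 3.57 (exact permutation test, adjusted p = 0.00674), whose size is limited in the same way. COL1A1 minus COL14A1 was −3.30, −1.90, −3.59 and −2.21 in the normals and from −3.24 to 3.12 (median −0.51) in the tumors, a log2 change of 2.41 (exact permutation test, adjusted p = 0.00202). For that pair 26 tumors were above each normal.

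The other 5 pairs did not pass. COL1A1 minus COL1A2 had a mean of −0.03 ± 0.40 (SD, n = 4) in the normals and −0.04 ± 0.55 (SD, n = 29) in the tumors, a log2 change of −0.01 (exact permutation test, adjusted p = 0.978). COL4A1 minus COL4A2 had a mean of −0.24 ± 0.08 in the normals and −0.07 ± 0.24 in the tumors (exact permutation test, adjusted p = 0.278). COL4A3 minus COL4A4 ranged from 0.62 to 1.04 in the 4 normals and from −3.40 to 4.10 in the 29 tumors, with a log2 change of −0.61 (exact permutation test, adjusted p = 0.687). Both ends of the tumor range rest on lowest values, of COL4A3 in tumor Ab and of COL4A4 in tumor 3. The pairs COL9A2 with COL9A3 and COL4A1 with COL7A1 changed by 0.22 and 0.12 (exact permutation test, adjusted p = 0.886 each), the first limited by COL9A3 at its lowest value in 23 tumors.

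**Figure D3:**
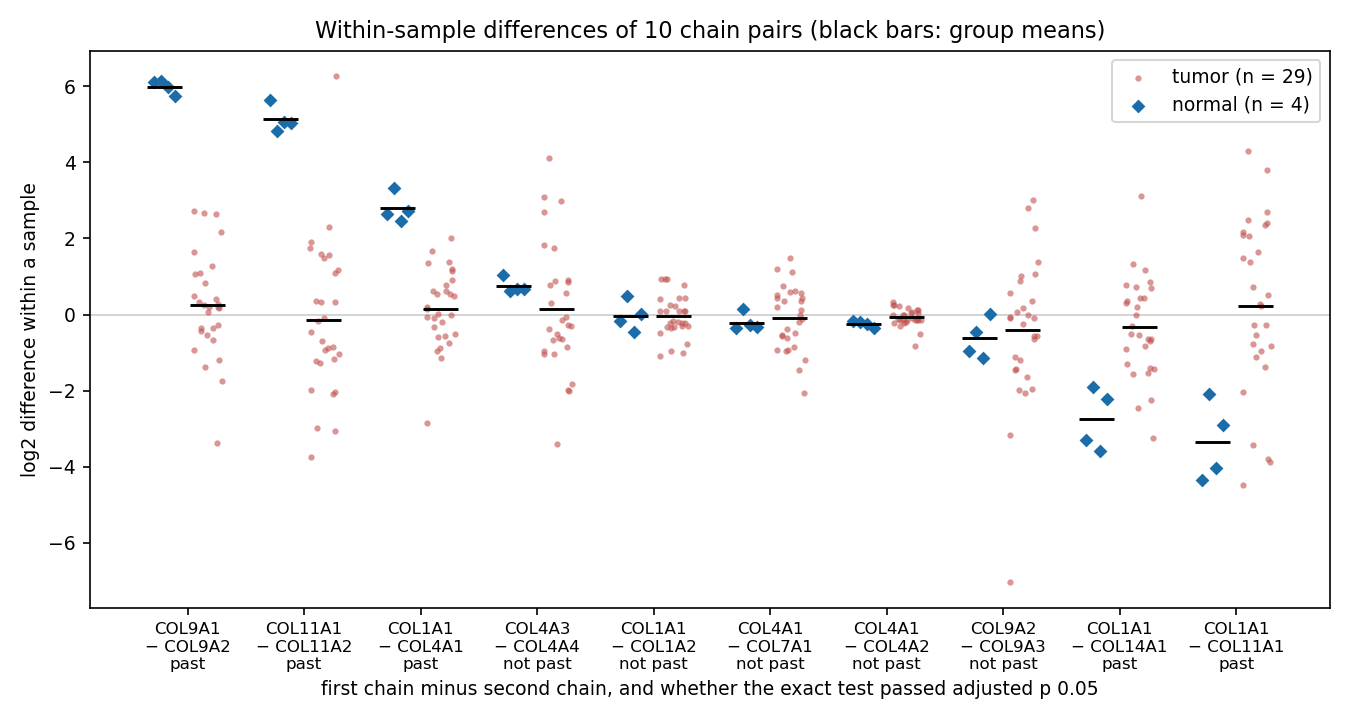
The log2 difference of 2 collagen chains within each sample (vertical axis) for the 10 pairs, ordered by the change between groups. Blue diamonds are the 4 normals, red points the 29 tumors and black bars the group means. For COL9A1 minus COL9A2 and COL1A1 minus COL4A1 every tumor lies below every normal, while the groups of COL1A1 minus COL1A2 share 1 range.

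The tumors were also compared among themselves, with Pearson's r and Spearman's rho over the 29 tumors, permutation p-values from 100000 resamples and Benjamini-Hochberg adjustment within each family of tests. Of the 10 chain pairs, 5 were correlated. COL4A1 and COL4A2 rose and fell together most closely (r = 0.982, rho = 0.982, adjusted permutation p = 3.33e-05 and 5e-05), and r was 0.972 without the 2 most extreme tumors. For COL1A1 and COL1A2, r was 0.931 and rho 0.927 (adjusted permutation p = 3.33e-05 and 5e-05), and r was 0.914 without the 2 most extreme tumors. COL1A1 was also correlated with COL4A1 (r = 0.740, rho = 0.703, adjusted permutation p = 3.33e-05 and 1e-04) and with COL14A1 (r = 0.656, rho = 0.630, adjusted permutation p = 0.00036 and 0.00062). COL4A1 was correlated with COL7A1 (r = 0.718, rho = 0.653, adjusted permutation p = 7.5e-05 and 5e-04). For these 3 pairs r without the 2 most extreme tumors was 0.657, 0.677 and 0.654.

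COL4A3 and COL4A4 were looser partners, with r = 0.381 (adjusted permutation p = 0.0701) and rho = 0.511 (adjusted permutation p = 0.00895), so the pair passed by rank and not by value. COL11A1 and COL11A2 had r = 0.269 (adjusted permutation p = 0.226). With COL9A3 at its lowest value in 23 of 29 tumors, its r with COL9A2 (−0.216) cannot show whether these chains vary together. In the RefSeq gene table, 4 pairs of the collagen genes are neighbours on a chromosome with no protein-coding gene between them. These are COL4A1 with COL4A2, COL4A3 with COL4A4, COL6A5 with COL6A6 and COL9A1 with COL19A1. The latter 2 pairs had r = 0.06 and r = 0.38 (adjusted permutation p = 0.748 and 0.0561, over the 4 neighbour pairs), and rho = 0.24 and 0.37 (adjusted permutation p = 0.211 and 0.0652). Whether reads were counted by strand is not given in the sources used here, so reads shared by such neighbours could not be assessed.

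**Figure D4:**
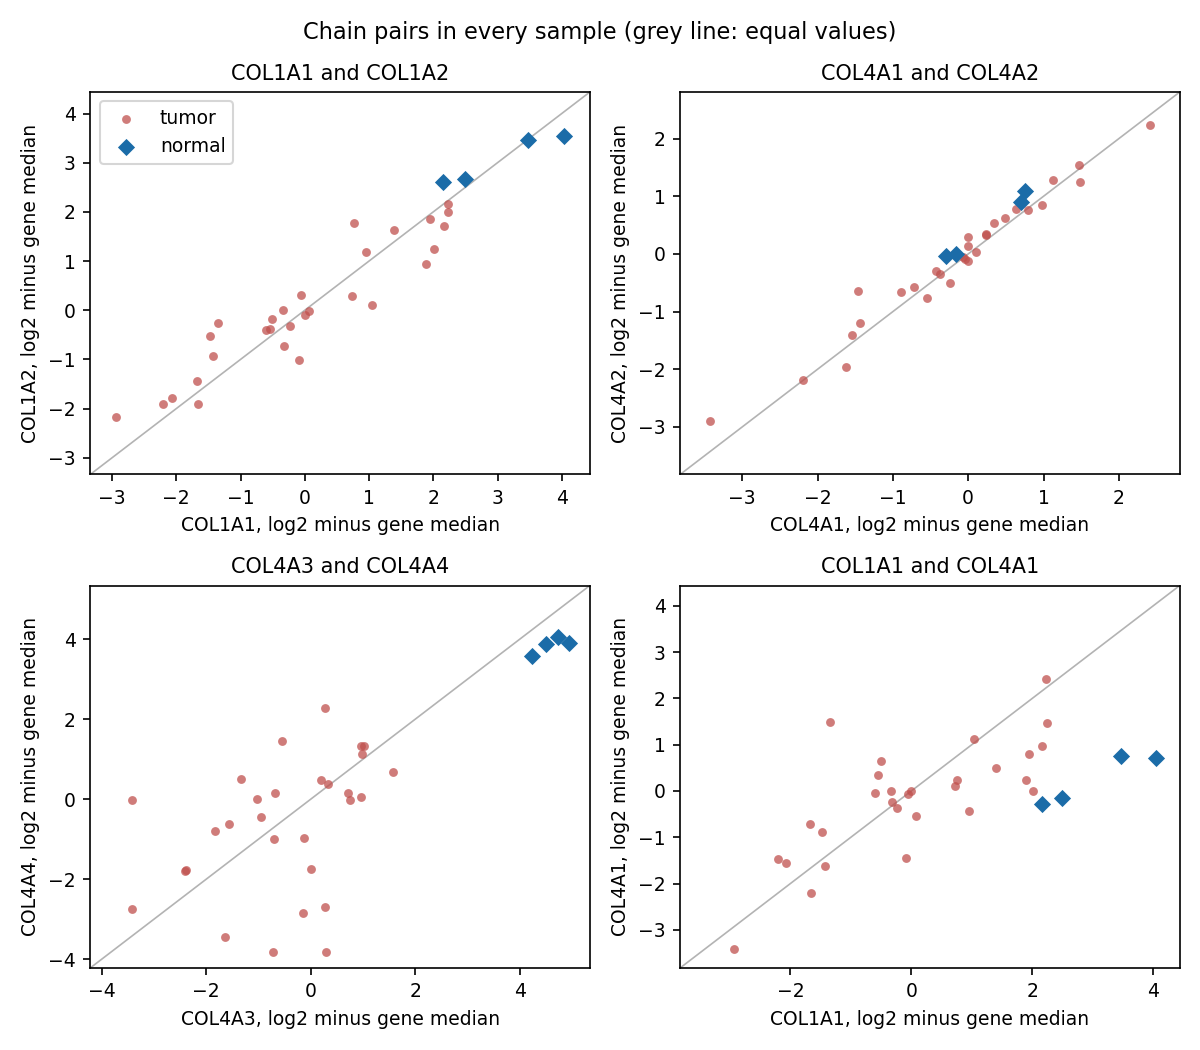
Values of 2 chains plotted against each other in every sample (both axes log2 minus the gene median), with the grey line marking equal values. COL4A1 and COL4A2 follow the line in normals (blue) and tumors (red), COL4A3 and COL4A4 scatter over the tumors, and the 4 normals lie off the line toward COL1A1 in the plot of COL1A1 and COL4A1.

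Of the 30 other collagen genes, 16 were correlated with COL1A1 over the tumors, each with a positive r. The weakest of them, COL24A1 (r = 0.411), held place 795 among 11902 gene symbols ordered by r with COL1A1. The share of all genes that pass the same test is not given here. After COL1A2 the highest were COL6A3 (r = 0.899), COL15A1 (0.794), COL4A1 (0.740), COL12A1 (0.738) and COL16A1 (0.726), with adjusted permutation p of at most 8.57e-05 by r and 0.000129 by rho. Of the genes whose level did not pass between tumors and normals, COL12A1, COL13A1 (0.642), COL5A1 (0.673), COL7A1 (0.586), COL15A1, COL4A1 and COL4A2 were among the 16. COL4A3 (r = 0.174), COL4A4 (0.251) and COL11A1 (0.162) did not pass, nor did COL9A1 (−0.129), COL9A3 (−0.116), COL11A2 (0.029), COL6A6 (−0.029) and COL22A1 (0.052). The lowest r was that of COL20A1 (r = −0.325, adjusted permutation p = 0.129). COL9A1, COL9A3 and COL20A1 were at their lowest value in 16, 23 and 23 tumors, so their r rest on few tumors. Without the 4 tumors of high olfactory receptor share 15 passed, with COL8A2 and COL24A1 lost and COL19A1 gained, and with that share regressed out 18 passed, with COL5A3 and COL19A1 gained.

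**Figure D5:**
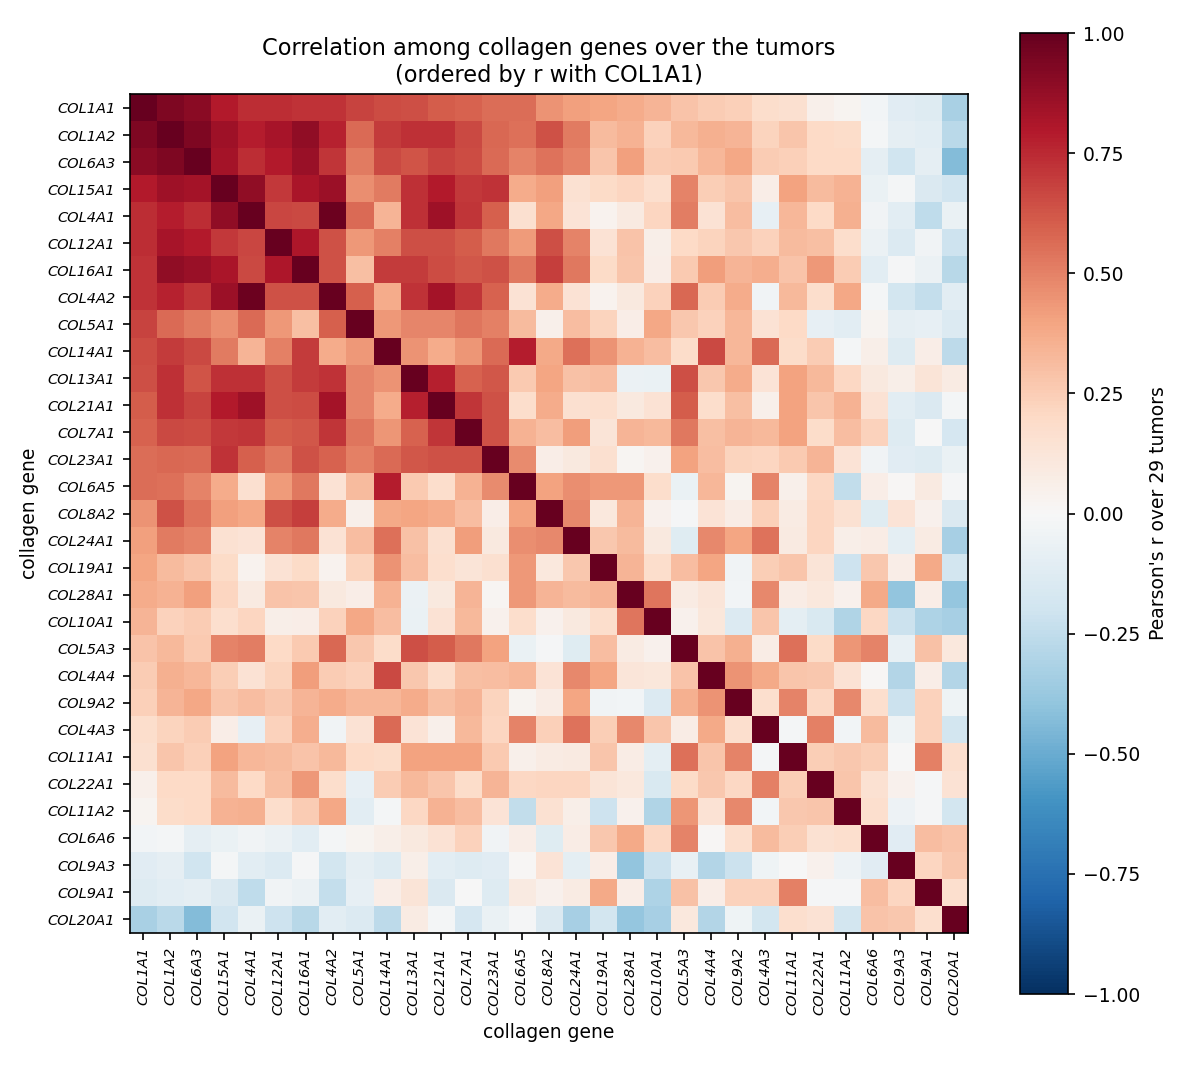
Pearson's r between each pair of collagen genes over the 29 tumors (colour, from −1 in blue to 1 in red), with the genes ordered by r with COL1A1. The block at the upper left, from COL1A2 to COL23A1, holds mostly positive values, and the rows from COL22A1 to COL20A1 are near 0 or below against COL1A1.

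The highest tumor was Po for 7 of the 31 collagen genes, COL1A1, COL1A2, COL6A3, COL7A1, COL9A1, COL12A1 and COL16A1, and JE for 5, COL4A1, COL4A2, COL13A1, COL15A1 and COL21A1. Po is also among the 4 tumors with a high olfactory receptor share. In the normals, D was highest for 19 collagen genes and C lowest for 19.

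COL1A1 was further compared with 24 marker genes of cell types over the tumors, and 14 of the correlations passed. The share of all genes that pass this test is not given here. For scale, an r of 0.411 held place 795 among 11902 gene symbols. The smooth muscle marker TAGLN (r = 0.823, rho = 0.835) and the pericyte and fibroblast marker PDGFRB (r = 0.801, rho = 0.762) were the closest, each with an adjusted permutation p of 8e-05 by both measures. All 5 smooth muscle, all 5 fibroblast and all 3 endothelial markers passed by r, among them CDH5 of endothelial junctions (r = 0.663, adjusted permutation p = 0.00024). The 1 negative correlation that passed was with CDH1, the cadherin of epithelial junctions (r = −0.529, rho = −0.551, adjusted permutation p = 0.00851 and 0.00557). Of the 2 Schwann cell markers, 0 passed by r or by rho, while CDH19 passed with the olfactory receptor share regressed out (r = 0.431, adjusted permutation p = 0.0307). By rho 12 of the 24 passed, and without the 4 tumors of high olfactory receptor share 11 passed by r, and with that share regressed out 15.

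Among 11902 gene symbols, the 5 non-collagen genes most like COL1A1 over the tumors by r were NID1 (0.866), which encodes the basement-membrane linker nidogen, CERCAM (0.856), EFEMP2 (0.846), an elastic fibre protein, PDZRN3 (0.842) and DPYSL3 (0.838). Those most like COL4A1 were PTPRB (0.933), a phosphatase of endothelium, LAMA4 (0.933), a laminin chain of vessel basement membranes, CDH5 (0.915), SPARC (0.914), a collagen-binding matrix protein, and PLVAP (0.909), a protein of endothelial pores. These r are descriptions over the same 29 tumors, with no test.

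Collagen chains need a set of enzymes before they can form fibres. In the endoplasmic reticulum prolines and lysines are hydroxylated and sugars added, and outside the cell the propeptides are cut off and the chains crosslinked. Of 36 listed genes of this pathway, 23 were tested, of which 9 were lower in the tumors and 3 higher (median log2 difference −0.39). As shares, 39.1% lower and 13.04% higher are near the 45.8% and 10.7% of all genes tested. The 3 largest falls were of LOX, the lysyl oxidase that crosslinks fibrils, PCOLCE2, an enhancer of propeptide cleavage, and COLGALT2, a galactosyltransferase. LOX was at 3.68, 4.18, 3.24 and 3.88 in the normals and from −2.14 to 1.78 (median −0.15) in the tumors, a log2 difference of −3.97 ± 0.53 (SE, adjusted p = 5.14e-08). PCOLCE2 was at 3.36 to 3.79 in the normals and −2.20 to 2.39 in the tumors (−3.77 ± 0.66, SE). COLGALT2 was at 2.75 to 3.68 in the normals and −2.24 to 1.64 in the tumors (−3.51 ± 0.52, SE). The groups of these 3 genes did not overlap.

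The 3 genes that were higher in the tumors act inside the cell. P4HA1 and P4HB encode the subunits of prolyl 4-hydroxylase, and P4HB also serves as protein disulfide isomerase in the folding of other proteins. P4HA1 was at −1.34, −1.20, −1.24 and −1.47 in the normals and from −0.94 to 1.60 (median 0.15) in the tumors, each above each normal, against 7.63% of the genes tested. Its log2 difference was 1.53 ± 0.29 (SE, adjusted p = 1.67e-05). P4HB was at −1.08, −1.21, −1.22 and −1.70 in the normals and from −0.82 to 1.07 (median 0.01) in the tumors, again with no overlap, and the log2 difference was 1.38 ± 0.20 (SE, adjusted p = 3.12e-07). PLOD3, a lysyl hydroxylase, was higher by 1.13 ± 0.22 on the log2 scale (SE, adjusted p = 2.49e-05) with some overlap, and lost its call in the DESeq-normalized table (0.83). SERPINH1, the collagen chaperone, differed by 0.24 ± 0.40 (SE, adjusted p = 0.603).

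Of 10 listed collagen receptors, 6 were tested. MRC2, which takes up collagen fragments into cells, was at 1.75, 1.55, 2.11 and 2.06 in the normals and from −2.52 to 1.69 in the tumors, and was lower by a log2 difference of −2.19 ± 0.47 (SE, adjusted p = 0.00012). DDR1, a collagen-binding tyrosine kinase of epithelia, was at −1.30, −1.26, −0.90 and −1.61 in the normals and from −1.21 to 1.11 in the tumors, and was higher by 1.21 ± 0.33 (SE, adjusted p = 0.00137), a call that the DESeq-normalized table did not give. The integrin subunit ITGA2 differed by 1.09 ± 0.61 (SE, adjusted p = 0.112), and ITGA1 and ITGB1 by −0.13 and −0.22. ITGA10 differed by −0.94 ± 0.37 (SE, adjusted p = 0.0238), just short of 2-fold.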

How the data were processed

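RNA-seq was measured in 29 tumors and 4 normals, which were grouped by sample title. The authors aligned the reads to CanFam3.1 with COBWeb in Strand NGS and normalized them by TMM and, separately, by DESeq. They deposited log2 values from which each gene's median was subtracted. The last line of each table was incomplete and was left out. The tables hold genes of chromosomes 1 to 26, in part.

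The deposited values are not counts, so limma 3.58.1 (R 4.3.3, lmFit and eBayes with trend) was fitted to all 24471 genes above their shared lowest value in at least 4 samples of the TMM table, where the authors used edgeR. A call needed an adjusted p of at most 0.05 and at least 2-fold. Scripts were tested on simulated data. The p-values measure the spread between these samples. Since total counts are unknown, no counting interval is given.

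Named were the chains of listed pairs, in each class the 2 largest falls without overlap, and, of the pathway and receptor genes, those called higher and the 3 largest falls. Other genes were named after their values were seen. The members and lists were chosen with earlier results of these data known. Alternatives were the second table that the authors deposited, normalized by DESeq, sample centring, limma variants, filters, no fold threshold, each normal left out, other statistics and, chosen after seeing the data, the tumors of high olfactory receptor share left out. Gene symbols (31 of 31) were matched to RefSeq (UU_Cfam_GSD_1.0) for neighbours.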

Additional observations from a re-analysis of the deposited data

Results flagged for a closer look

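In 7 of 94 sets of 4 normals (31 collagen genes, 53 pathway, receptor and marker genes and 10 chain pairs), 1 normal stood apart, with a gap to its nearest neighbour that, as a share of the range, passed Dixon's critical value for 4 samples. Chance gives about 1 in 20 such sets. For COL12A1, normal C was at −0.41 and the others at 0.92 to 1.04 (share 0.921). For COL4A3 minus COL4A4, normal A was at 1.04 and the others at 0.62 to 0.67 (share 0.898). For COL4A1 minus COL7A1, normal B was at 0.14 and the others at −0.36 to −0.29 (share 0.863). Normal D stood apart and low for 4 epithelial markers. CDH1 was at −2.93 against −1.83 to −1.69 (share 0.887), KRT19 at −1.79 against −0.64 to −0.50 (0.892), UPK2 at −2.14 against 0.35 to 0.38 (0.987) and UPK3A at −3.20 against −1.39 to −1.18 (0.896).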

How the results depend on the processing

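The number of collagen genes lower in the tumors was 22, and ran from 20 to 23 over the alternatives. Those higher stayed at 0, basement-membrane genes lower at 2, and chain pairs past the threshold at 5. The receptor counts moved, with 2 lower and 0 higher in the DESeq-normalized table, 2 lower without a fold threshold, and 1 to 2 lower when a normal was left out (2 without normal C), against 1 and 1. Biosynthesis genes higher were 3, and 6 without a fold threshold, 2 in the DESeq-normalized table (without PLOD3) and 4 without normal D. Those lower were 9, and 8 without normal B or C (P4HA3 lost) and 7 without D (FKBP10 and P4HA3 lost). Without a fold threshold LOXL3 was lower too (log2 difference −0.54, limma adjusted p = 0.0468). The COL5A1 log2 difference turned to −0.15 in the DESeq-normalized table and ran from −0.11 (without normal C) to 0.33 with a normal left out. COL1A1 minus COL1A2 changed by −0.15 to 0.16 with a normal left out and by 0.0414 without the 4 tumors of high olfactory receptor share, around a main value of −0.01. The cause was not tested. The DESeq-normalized table put the median of all genes at −1.11, against −0.84. No paired analysis was possible, since the normals came from dogs euthanized for reasons other than bladder disease and not from the dogs with tumors. With 4 normals, differences under about their spread cannot be resolved, and genes at their lowest value in most tumors have differences limited by it.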
